A study of Mus musculus with 32 samples.

Results

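The measurement described here is the change of the DUX4 effect in mouse whole muscle between 16 weeks and 2 weeks. For each gene the DUX4 minus WT difference at 16 weeks was set against the same difference at 2 weeks, on the log2 scale, so that a positive value means a difference that lay higher at 16 weeks. The comparison was chosen by its samples and used all 18 whole-muscle libraries of the 32 in the series. They were 4 libraries of the group labelled IDUX.16Weeks (DUX4), 4 of WT.16Weeks (WT), 5 of IDUX.2Weeks (DUX4) and 5 of WT.2Weeks (WT). The DUX4 mice carried an inducible DUX4 gene and the WT mice did not, and every animal, WT included, ate doxycycline chow, the inducer. The series' design places both times in the course of a disease, an early and a late one. Age, sex, the muscle taken and the promoter that drives the transgene were not given in the sources used here, nor was it stated that each library came from a separate animal. The p-values therefore measure the spread between these libraries, which may be partly technical. The DUX4 transgene has no entry in the tables and was not analysed here.

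DUX4 is a transcription factor of the early embryo. It is normally silent in muscle, and its expression in muscle is the cause of facioscapulohumeral dystrophy. Muscle under chronic injury is known to recruit inflammatory cells, to respond to interferons and to deposit matrix made by fibroadipogenic progenitors (FAPs) and tendon cells. Interferon-stimulated genes are switched on by factors that bind the interferon-stimulated response element, whereas heat shock genes are switched on by heat shock factors that bind the heat shock element.

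The libraries held between 6071276 and 19369609 counted fragments each, and 3 counts, used as the detection floor, corresponded to between 0.155 and 0.494 CPM (counts scaled to a common library total). CPM values below are scaled by the trimmed mean of M-values (TMM). Several libraries differed in ways that the groups do not explain. The 2-week libraries fell into 2 sets, replicates 1 to 3 and 4 to 5 in each genotype, and the labels name no batch. Hoxd8, a gene of body position, lay at 22.7 to 51.5 CPM at 16 weeks, at 51.2 to 73.5 CPM in the 2-week replicates 1 to 3 and at 4.49 to 5.56 CPM in the 2-week replicates 4 to 5. Hoxc10, another position gene, lay at 39.7 to 82.1 CPM at 16 weeks, at no more than 0.0918 CPM in the 2-week replicates 1 to 3 and at 58.5 to 78 CPM in the 2-week replicates 4 to 5. Myh7, the slow myosin heavy chain, lay at 1410 to 3340 CPM at 16 weeks, at 143 to 486 CPM in the 2-week replicates 1 to 3 and at 9.33 to 114 CPM in the replicates 4 to 5. The 16-week libraries thus resembled neither 2-week set over these genes, in either genotype, and time and the muscle taken cannot be told apart. The genotypes also differed at 16 weeks in Hoxc10, with 39.7 to 52.8 CPM in DUX4 and 63 to 82.1 CPM in WT, while Hoxd8 overlapped. The position gene Hoxd10 was likewise lower in DUX4 at 16 weeks (0.659 to 2.13 CPM, against 2.52 to 6.12 CPM in WT). Tbx4, another position gene, was higher in DUX4 at 16 weeks (5.08 to 7.47 CPM, against 1.35 to 2.27 CPM in WT). Among 16 tested position genes, 3 were higher and 4 lower in DUX4 at 16 weeks (16.5% and 13.7% of all tested genes). At 2 weeks 1 was higher and 0 lower (12.5% and 8.26% of all). The part of position in the DUX4 minus WT differences was not tested. The DUX4 minus WT difference is taken within each time, and a term for the 2-week sets stood in the fit. WT.16Weeks replicate 1 stood apart in Fkbp5, a glucocorticoid target, with 470 CPM against 24.7 to 57.5 CPM in the other 3 WT libraries of 16 weeks. It also had 209 CPM of Lcn2, an acute phase protein, and only 0.326 CPM of the globin Hbb-bs. WT.16Weeks replicate 4 had 1.18 CPM of Xist, the RNA of the inactive X chromosome, against 142 to 302 CPM in every other library, while Ddx3y of the Y chromosome stayed at or below 0.762 CPM in all 18. Another Y-linked gene, Uty, lay at 8.71, 1.98, 65.8 and 4.18 CPM in DUX4 and 1.5, 0.699, 0.566 and 8.58 CPM in WT libraries of 16 weeks, and at or below 0.477 CPM in DUX4 and 4.4 CPM in WT libraries of 2 weeks. With the summed level of Y-linked genes (Ddx3y, Eif2s3y, Kdm5d and Uty) as a covariate, the count of calls given next was 22. Eif2s3y reached no more than 0.191 CPM and Kdm5d lay at 0.735 to 3.69 CPM, so Uty held most of the range of this sum. The mean of Uty was highest in IDUX.16Weeks (20.2 CPM), so the covariate overlaps the contrast itself. The part of these levels in the results was not tested.

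**Figure D1:**
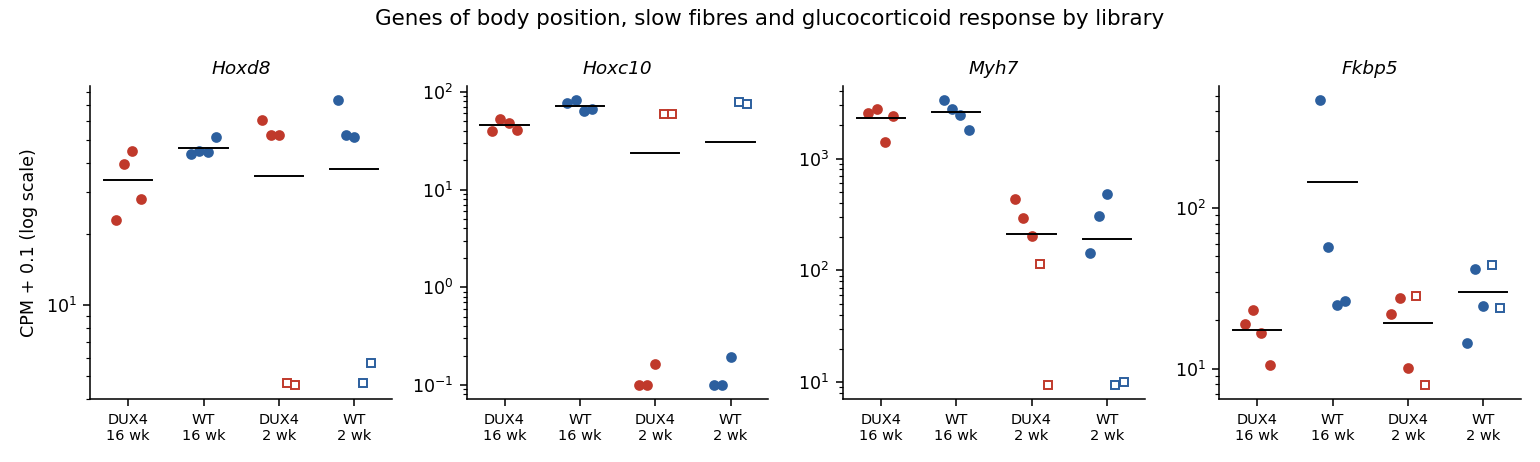
Levels of Hoxd8, Hoxc10, Myh7 and Fkbp5 in each of the 18 libraries (CPM + 0.1, log axis), by group. Points are libraries, open squares are the 2-week replicates 4 to 5 and lines are group means. Hoxc10 was at or below 0.0918 CPM in the 2-week replicates 1 to 3, and Fkbp5 reached 470 CPM in 1 WT library of 16 weeks.

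The DUX4 effect of 137 of 15396 tested genes differed between 16 and 2 weeks, 0.890% of those tested, at an adjusted p below 0.05 (edgeR's quasi-likelihood test with Benjamini-Hochberg adjustment). It was more positive at 16 weeks for 90 genes (0.585%) and more negative for 47 (0.305%). Between DUX4 and WT, 4653 genes (30.2%) differed at 16 weeks, 2542 of them higher (16.5%) and 2111 lower (13.7%) in DUX4. At 2 weeks 3192 genes (20.7%) differed, 1921 higher (12.5%) and 1271 lower (8.26%). Over all tested genes the median change was -0.01, 49% of the genes lay above 0 and 3023 (19.6%) had an unadjusted p below 0.05. Counts were also simulated with the same groups and fitted over 15091 genes. A change of log2 1 was placed in 68 genes, of log2 2 in 66 and of log2 3 in 66. Of these changes 33.8%, 81.8% and 92.4% were recovered, in that order. Among the 144 genes called in the simulated counts, 6 had no change placed. Only genes averaging 5 CPM or more over the libraries received a placed change, and the shares were not split by expression level. They thus give no recovery rate for genes below that level, including those near the floor.

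The 90 genes with a more positive effect were mostly higher in DUX4 muscle at 16 weeks and near equal at 2 weeks. Their change had a median of 1.84 on the log2 scale (range 0.82 to 8.32), with a median DUX4 minus WT difference of 1.74 at 16 weeks and -0.15 at 2 weeks. Of the 90, 63 were called at 16 weeks alone, 8 at 2 weeks alone, 9 at both times with the same sign and 10 at both times with opposite signs. In 82 of the 90 (91.1%) every DUX4 library lay above every WT library at 16 weeks, compared with 15.2% of all tested genes. Both genotypes differed between the times in 56 of the 90 genes (62.2%): the mean of the 16-week DUX4 libraries lay above the DUX4 means of both 2-week sets, and that of the 16-week WT libraries below both WT means. For 25 genes this held in DUX4 alone and for 7 in WT alone. The choice of these genes favours such shifts. Among 5960 genes with a positive change and an unadjusted p of 0.05 or more, DUX4 lay above both sets in 42.8%, WT below both in 50.9%, and both held in 8.52%.

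The 47 genes with a more negative effect were split between those lower in DUX4 muscle at 16 weeks and those higher at 2 weeks. Their change had a median of -0.96 (range -7.88 to -0.46), with a median DUX4 minus WT difference of -0.50 at 16 weeks and 0.46 at 2 weeks. Of the 47, 22 were called at 16 weeks alone, 20 at 2 weeks alone, 2 at both times with the same sign and 3 at both with opposite signs. The mean of the 16-week DUX4 libraries lay below the DUX4 means of both 2-week sets for 36 of them (76.6%), and the mean of the 16-week WT libraries above both WT means for 43 (91.5%), with both in 32 (68.1%). Among 6413 genes with a negative change and an unadjusted p of 0.05 or more, these shares were 41.8%, 57.9% and 12.4%.

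**Figure D2:**
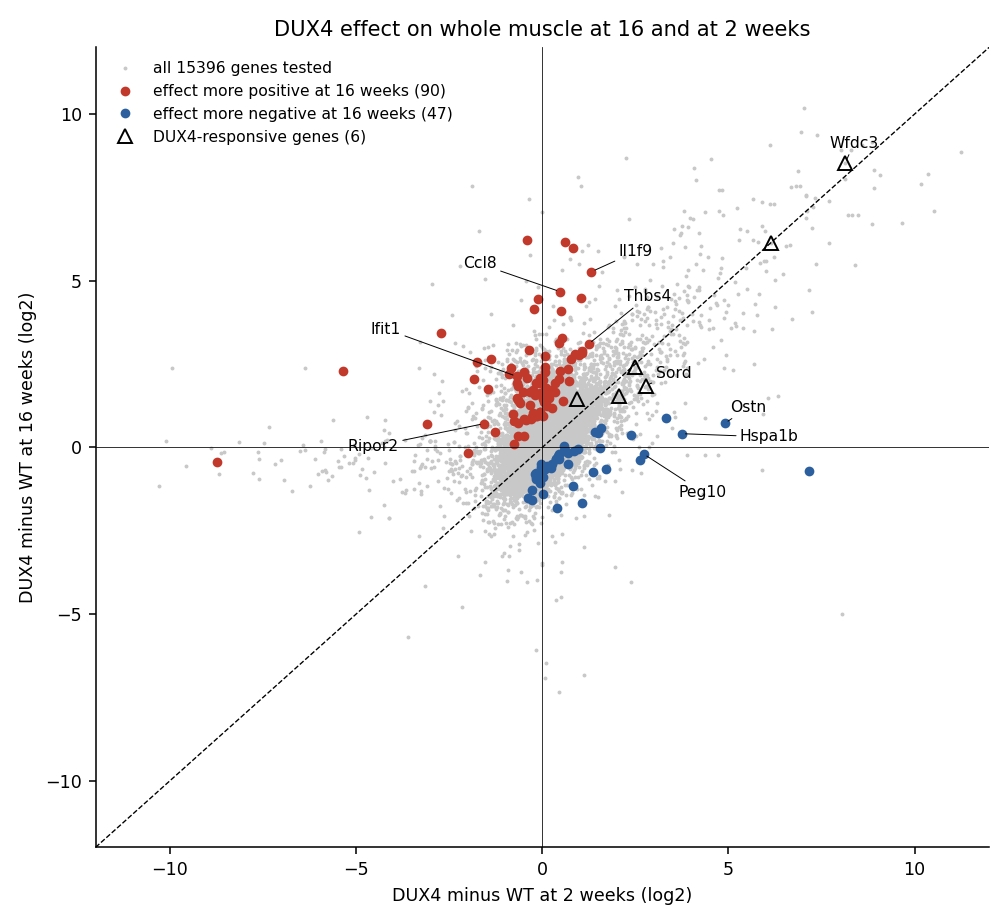
DUX4 minus WT difference (log2) at 16 weeks, vertical axis, against that at 2 weeks, horizontal axis, for 15396 genes. Red and blue points are the 90 and 47 genes whose difference was more positive or more negative at 16 weeks, triangles are the 6 DUX4-responsive genes, and the dashed line marks equal differences. Most red points have a 2-week difference near 0, and the triangles lie near the line.

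Promoter windows are shown for 5 genes of the interferon, class I and heat shock results below, chosen because their windows hold a match to the motif searched. Called genes of these lists without such a match in their window include Oasl2 and H2-D1, and for Ifi27l2a no window was at hand. The window runs from 250 bases before to 50 bases after the start of the RefSeq transcript, on the gene's own strand (RefSeq, GRCm38.p6). Capitals mark matches to the core of the interferon-stimulated response element, GAAANNGAA on either strand, in the first 3 windows and to the heat shock element pair GAANNTTC in the others. 2 of the 3 matches before Ifit1 overlap.
Ifit1 chr19:34640639-34640938 (plus strand): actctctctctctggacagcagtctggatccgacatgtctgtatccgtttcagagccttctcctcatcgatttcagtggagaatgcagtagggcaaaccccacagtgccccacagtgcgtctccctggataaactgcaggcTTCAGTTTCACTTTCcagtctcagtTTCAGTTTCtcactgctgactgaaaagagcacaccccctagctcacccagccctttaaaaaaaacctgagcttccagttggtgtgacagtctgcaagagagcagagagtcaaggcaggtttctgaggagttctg
B2m chr2:122147437-122147736 (plus strand): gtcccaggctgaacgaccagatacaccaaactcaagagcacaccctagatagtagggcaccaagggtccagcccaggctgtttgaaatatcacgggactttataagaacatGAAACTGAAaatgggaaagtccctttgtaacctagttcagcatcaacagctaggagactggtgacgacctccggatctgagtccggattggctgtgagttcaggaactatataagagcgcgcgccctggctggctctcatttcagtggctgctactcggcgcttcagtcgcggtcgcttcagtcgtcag
H2-T23 chr17:36032652-36032951 (minus strand): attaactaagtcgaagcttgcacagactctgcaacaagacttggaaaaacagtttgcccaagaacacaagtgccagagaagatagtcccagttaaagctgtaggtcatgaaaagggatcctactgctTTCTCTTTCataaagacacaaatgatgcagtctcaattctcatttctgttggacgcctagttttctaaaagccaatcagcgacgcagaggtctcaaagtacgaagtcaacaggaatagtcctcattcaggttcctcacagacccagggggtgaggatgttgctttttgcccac
Hspa1a chr17:34972107-34972406 (minus strand): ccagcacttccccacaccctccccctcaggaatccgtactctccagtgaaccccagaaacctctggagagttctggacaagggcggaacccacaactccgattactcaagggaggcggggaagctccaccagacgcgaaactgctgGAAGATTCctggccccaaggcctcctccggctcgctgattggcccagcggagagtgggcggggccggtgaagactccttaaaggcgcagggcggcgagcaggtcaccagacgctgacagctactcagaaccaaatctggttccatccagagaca
Hspa1b chr17:34959189-34959488 (minus strand): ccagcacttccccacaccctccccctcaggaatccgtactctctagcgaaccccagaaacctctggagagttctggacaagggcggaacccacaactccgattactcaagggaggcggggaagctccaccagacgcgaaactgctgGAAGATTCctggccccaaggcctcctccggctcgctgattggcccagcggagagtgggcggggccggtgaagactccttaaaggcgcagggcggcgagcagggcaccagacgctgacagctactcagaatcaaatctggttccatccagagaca
The Hspa1a and Hspa1b windows were identical at 296 of 300 bases. A RefSeq window was found for 63 of the 90 and 38 of the 47 genes, some with several starts. The interferon element core was in 10 of the 81 windows of the genes with a more positive effect (12.3%), in 4 of 50 windows of the genes with a more negative effect (8%) and in 7.14% of the 14014 windows of all tested genes. The heat shock pair was in 6.17%, 6% and 5.66% of these windows, in the same order. This pair was added to the search after the data were seen. Among the other motifs searched, TGACGTCA (CRE) was in 0%, 4% and 2.83% of the windows. CACGTG (E-box) was in 4.94%, 12% and 9.63%. A match is a run of letters only, and these shares carry no test.

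Interferon-stimulated genes, which restrict viruses and degrade RNA, were higher in DUX4 muscle at 16 weeks and near WT levels at 2 weeks. Of 39 tested genes of this list, 3 changed in effect (Ifit1, Ifi27l2a and Oasl2), all more positive at 16 weeks, and the median change was 1.24, compared with -0.01 over all tested genes. At 16 weeks 23 of the 39 were higher in DUX4 (16.5% of all tested genes were) and none was lower (13.7% of all). At 2 weeks 3 were higher (12.5% of all) and 2 lower (8.26% of all). In whole muscle, more cells of a type and more RNA per cell cannot be told apart. Ifit1, an antiviral protein that binds foreign RNA, had 13.8, 9.76, 32.5 and 8.57 CPM in the DUX4 libraries and 4.1, 2.1, 2.32 and 6.9 CPM in the WT libraries of 16 weeks. At 2 weeks it had 3.79, 3.22, 4.38, 3.48 and 4.49 CPM in DUX4 muscle and 5.23, 6.51, 5.05, 6.69 and 8.01 CPM in WT muscle. The DUX4 libraries thus all lay above WT at 16 weeks and all below WT at 2 weeks. The change for Ifit1 was 2.82 ± 0.54 (log2, SE; adjusted p = 0.023), from a difference of 2.13 ± 0.41 at 16 weeks (adjusted p = 0.00117) and -0.69 ± 0.36 at 2 weeks (adjusted p = 0.196). Its gene lies on chromosome 19, 34640871 to 34650009 (GRCm38).

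Ifi27l2a, a small interferon-induced membrane protein, had 23.7, 23.5, 15.2 and 10.7 CPM in DUX4 and 1.04, 2.02, 3.17 and 2.02 CPM in WT libraries of 16 weeks. In the 2-week libraries its level was 16.7, 11, 10.5, 2.17 and 3.04 CPM in DUX4 and 9.39, 12.8, 10.9, 0.947 and 1.79 CPM in WT libraries. The groups did not overlap at 16 weeks and overlapped at 2 weeks, where the replicates 4 and 5 were the low ones in both genotypes. The change was 2.68 ± 0.45 (adjusted p = 0.0145). Ifitm3, a membrane protein that blocks virus entry, was higher in DUX4 muscle by 2.90 ± 0.23 at 16 weeks (adjusted p = 2.47e-06) and already by 1.07 ± 0.20 at 2 weeks (adjusted p = 0.00112). It had 118, 79.6, 114 and 117 CPM in DUX4 and 11.8, 14.8, 15.7 and 15 CPM in WT libraries of 16 weeks, and averaged 66.8 ± 22.8 CPM in DUX4 and 31.2 ± 11.3 CPM in WT at 2 weeks (SD, n = 5 each). Its change was 1.83 ± 0.29 (adjusted p = 0.0126), and 1 WT library of 2 weeks overlapped the DUX4 range. Oasl2, a protein of the oligoadenylate synthetase family, averaged 5.87 ± 1.04 CPM in DUX4 and 1.58 ± 0.789 CPM in WT at 16 weeks (SD, n = 4 each), and 5.41 ± 1.54 and 5.74 ± 0.94 CPM in DUX4 and WT at 2 weeks (SD, n = 5 each). In Oasl2 it was the WT level that was lower at 16 weeks. Its change of 2.01 ± 0.42 (adjusted p = 0.036) lost its call in 12 of the 18 refits that left out 1 library, with an adjusted p of up to 0.069. Several other members did not pass: Usp18 (2.05 ± 0.48, adjusted p = 0.0551), Oas2 (2.08 ± 0.51, adjusted p = 0.0587) and Irf7 (1.90 ± 0.48, adjusted p = 0.0659). No sensor of foreign nucleic acid was called among 13 tested, with a median change of 0.79.

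Genes of antigen presentation were also higher in DUX4 muscle mainly at 16 weeks. Class I molecules show peptides from inside the cell to T cells. Of 14 class I genes, B2m, H2-T23 and H2-D1 changed in effect, all 14 lay above 0 and the median was 1.08. At 16 weeks 12 of the 14 were higher in DUX4, compared with 16.5% of all tested genes. At 2 weeks 2 were, compared with 12.5% of all. B2m, the light chain shared by class I molecules (chromosome 2, 122147686 to 122153083), had 100, 98.5, 95.8 and 131 CPM in DUX4 and 47, 53.1, 59.2 and 56.5 CPM in WT libraries of 16 weeks. At 2 weeks it had 83, 81.5, 76.9, 83.8 and 97.6 CPM in DUX4 and 98, 95.6, 84, 89.3 and 102 CPM in WT libraries. The groups stood apart at 16 weeks, where DUX4 was higher and WT lower than at 2 weeks, and they overlapped at 2 weeks. The change for B2m was 1.13 ± 0.15 (adjusted p = 0.00643), from 0.98 ± 0.11 at 16 weeks and -0.15 ± 0.10 at 2 weeks. H2-T23, a nonclassical heavy chain on chromosome 17, had 13.6, 17.7, 20.8 and 20.4 CPM in DUX4 and 5.34, 8.31, 8.32 and 6.06 CPM in WT libraries of 16 weeks. At 2 weeks it averaged 15.3 ± 2.74 CPM in DUX4 and 14.9 ± 1.55 CPM in WT (SD, n = 5 each), with overlap, and its change was 1.32 ± 0.24 (adjusted p = 0.0204). H2-D1, a classical heavy chain, averaged 108 ± 16.1 CPM in DUX4 and 56.1 ± 5.69 CPM in WT at 16 weeks, with a change of 0.92 ± 0.18 (adjusted p = 0.0232, and 0.0513 without IDUX.16Weeks replicate 4). Class I heavy chains are near copies of one another, so reads may have been split between them in the authors' counts.

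Class II molecules present peptides taken up from outside the cell. Of 7 class II genes, H2-Ab1 changed in effect, and all 7 lay above 0 with a median of 1.35. All 7 were higher in DUX4 at 16 weeks, where 16.5% of all tested genes were. At 2 weeks 1 was higher, compared with 12.5% of all. H2-Ab1 averaged 28.3 ± 9.22 CPM in DUX4 and 6.79 ± 0.899 CPM in WT at 16 weeks (SD, n = 4 each), and 19.4 ± 9.19 and 13.6 ± 7.09 CPM in DUX4 and WT at 2 weeks (SD, n = 5 each). Its change of 1.60 ± 0.34 (adjusted p = 0.038) did not hold as a call in 12 of the 18 refits, with an adjusted p of up to 0.0836. H2-Aa did not pass (1.48 ± 0.35, adjusted p = 0.0553), nor did Nlrc5, the activator of class I genes (1.95 ± 0.49, adjusted p = 0.0659).

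Among secreted signals of inflammation, 3 of 8 tested genes of the interleukin-1 family were higher in DUX4 muscle at 16 weeks. So were 6 of 16 tested chemokines, and none of either list was lower. The shares over all tested genes were 16.5% higher and 13.7% lower. Of 10 tested genes of the interleukin-6 family and its Socs inhibitors, none was higher and 3 were lower at 16 weeks, and their median change was 0.09 with none called. Il1f9, which encodes interleukin-36 gamma of the interleukin-1 family (chromosome 2, 24186476 to 24193568), had 12.4, 15.4, 26.8 and 13.4 CPM in DUX4 and 0.456, 0.699, 0.396 and 0 CPM in WT libraries of 16 weeks. In 2-week muscle it had 3.34, 1.85, 1.21, 0.464 and 1.45 CPM in DUX4 and 1.14, 0.325, 0.551, 0.676 and 0.377 CPM in WT libraries. The groups were far apart at 16 weeks and overlapped at 2 weeks, and WT levels sat close to the floor at both times. The change for Il1f9 was 3.95 ± 0.71 (adjusted p = 0.0193), from 5.27 ± 0.54 at 16 weeks (adjusted p = 7.81e-06) and 1.32 ± 0.47 at 2 weeks (adjusted p = 0.0553). It was the 1 gene called of 8 tested in its family list of 15, whose median change was 0.85.

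Chemokines attract leukocytes, and Ccl8, Ccl21a and Cxcl9 changed in effect among 16 tested of 24 listed (median 0.64, 11 of 16 above 0). Ccl8, which attracts monocytes, had 2.45, 1.52, 1.52 and 2.93 CPM in DUX4 and 0.195, 0, 0.0566 and 0 CPM in WT libraries of 16 weeks. At 2 weeks it had 3.27, 1.67, 1.21, 0.232 and 0.276 CPM in DUX4 and 1.06, 1.95, 1.29, 0.203 and 0.189 CPM in WT libraries. Ccl8 in DUX4 muscle was thus no higher at 16 weeks than in the 2-week replicates 1 to 3, and it was the WT level that was near 0 at 16 weeks. Its fitted change, 4.19 ± 0.74 (adjusted p = 0.0193), rests on WT counts at the floor and is no measure of fold. Ccl21a, which guides dendritic and T cells, averaged 9.19 ± 3.44 CPM in DUX4 and 2.05 ± 1.06 CPM in WT at 16 weeks, and 2.1 and 4.05 CPM in DUX4 and WT at 2 weeks. It belongs to a family of near-identical copies, and its change of 3.10 ± 0.65 (adjusted p = 0.036) did not hold as a call in 8 of the 18 refits, with an adjusted p of up to 0.0784. Cxcl9, an interferon-gamma-induced chemokine, had a change of 1.96 ± 0.45 (adjusted p = 0.0488), lost in 16 of the 18 with an adjusted p of up to 0.085. None of 17 complement genes was called, although 16 lay above 0 with a median of 1.22. At 16 weeks 11 of the 17 were higher in DUX4, compared with 16.5% of all tested genes. At 2 weeks none was, compared with 12.5% of all.

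**Figure D3:**
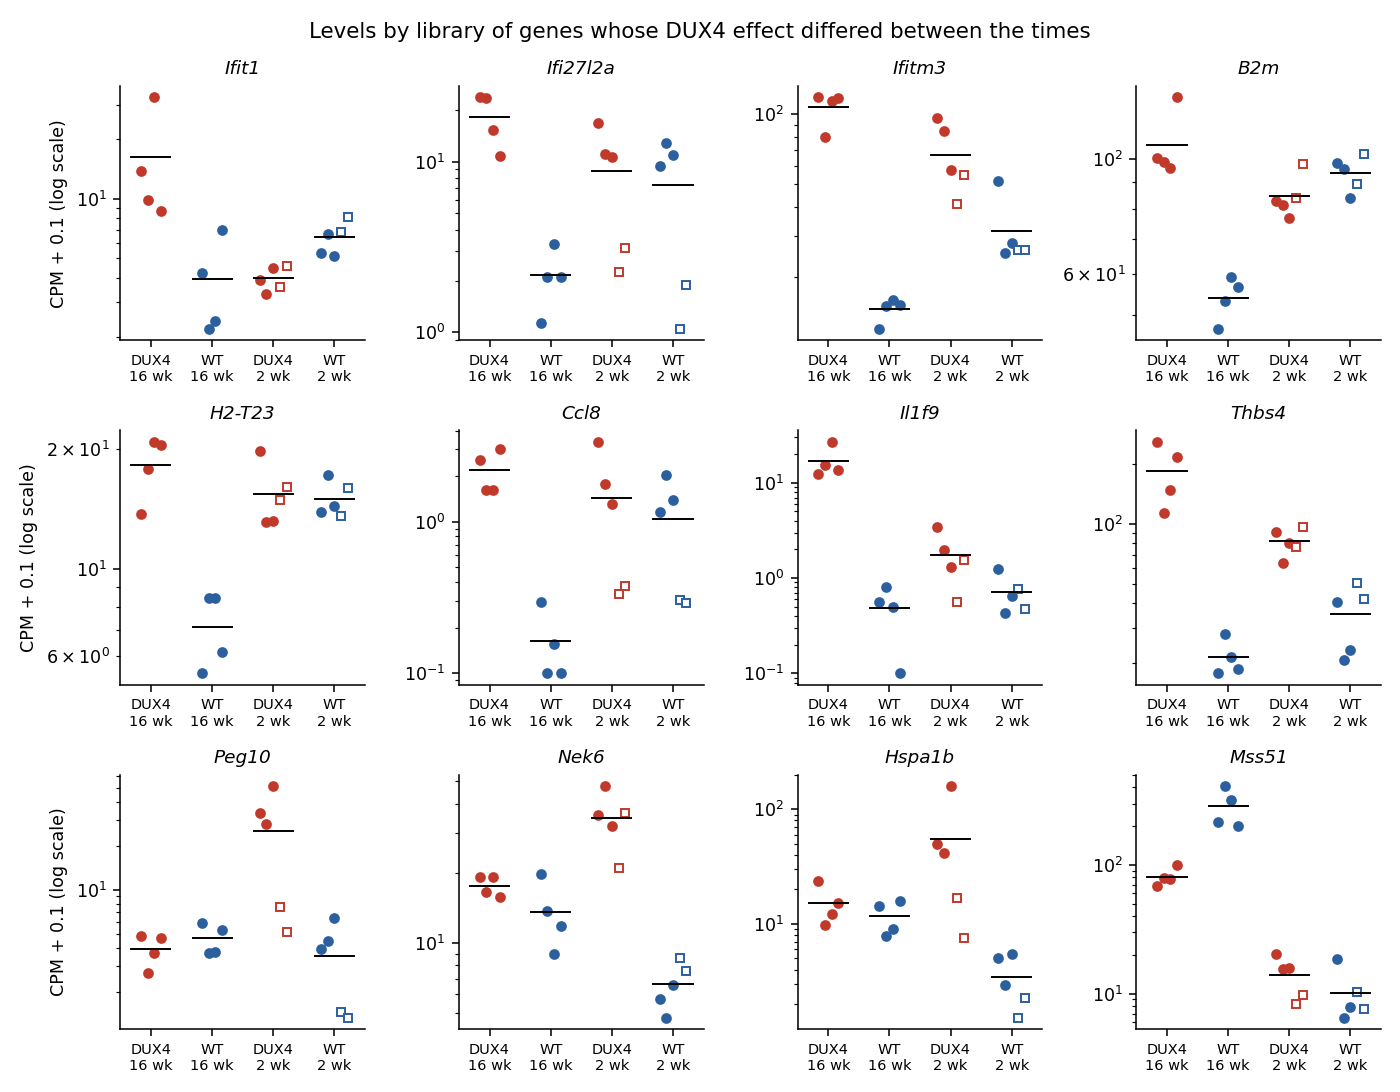
Levels in each library (CPM + 0.1, log axes that differ between panels) of 12 genes whose DUX4 effect differed between the times, DUX4 in red and WT in blue. Open squares are the 2-week replicates 4 to 5 and lines are group means. In the 8 upper genes the groups stand apart at 16 weeks. Nek6 and Hspa1b stand apart at 2 weeks, as does Peg10 within each 2-week set, and all 3 overlap at 16 weeks.

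Leukocyte markers are given beside these groups. The summed level of 19 macrophage markers had a lowest, median and highest value of 131, 214 and 500 CPM in DUX4 and 53.9, 61.8 and 295 CPM in WT libraries of 16 weeks, and of 122, 278 and 287 CPM in DUX4 and 80, 167 and 219 CPM in WT libraries of 2 weeks. The DUX4 and WT sums overlapped at both times. Summed markers of T and natural killer cells reached no more than 4.57 CPM in DUX4 and 2.52 CPM in WT libraries of 16 weeks, and 2.48 and 6.94 CPM in those of 2 weeks. None of the 19 macrophage markers was called for a change (median 0.53), and the 1 tested gene of T and natural killer cells had a change of -0.32. At 16 weeks 8 of the 19 macrophage markers were higher in DUX4, compared with 16.5% of all tested genes. None was lower, compared with 13.7% of all. At 2 weeks 2 were higher, compared with 12.5% of all tested genes. Sirpa, a macrophage and neuron receptor that limits engulfment, changed by 1.65 ± 0.34 (adjusted p = 0.0328), with 52 ± 19 CPM in DUX4 and 10.2 ± 2.78 CPM in WT at 16 weeks (SD, n = 4 each). Sirpa is in no marker list. In sorted WT cells of the series it averaged 88.8 CPM in FAPs and 31.7 CPM in endothelial cells (scaled to library totals, n = 3 each). Mgl2, a lectin of macrophages and dendritic cells, changed by 1.70 ± 0.36 (adjusted p = 0.0363). Both lost their calls in 10 of the 18 refits. Among 5 tested B and plasma cell genes all lay above 0, and Jchain, the joining chain of secreted antibodies, was called (2.61 ± 0.59, adjusted p = 0.0488) but was lost in 17 of the 18. The part of leukocyte content in these results was not tested. WT.16Weeks replicate 1, with 117 CPM of the macrophage and neutrophil gene Lyz2, gave the highest WT marker sum. Without it the median change of the macrophages list was 1.48.

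Of the matrix genes tested, 14 of 26 glycoproteins and proteoglycans and 11 of 16 collagens were higher in DUX4 muscle at 16 weeks. So were 9 of 21 genes of crosslinking and remodelling, and none of these lists held a lower gene. The share of all tested genes that were higher was 16.5% at 16 weeks and 12.5% at 2 weeks, and 13.7% were lower at 16 weeks. Of 26 matrix glycoproteins and proteoglycans 24 lay above 0 with a median of 1.30, Thbs4 was the 1 called, and at 2 weeks 4 of the 26 were higher in DUX4. Of 16 tested collagens none was called for the change, with 15 above 0, a median of 1.10 and 2 higher in DUX4 at 2 weeks. Col1a1, a chain of the main fibrillar collagen, differed by 2.18 at 16 weeks and 0.13 at 2 weeks, and its change of 2.04 ± 0.53 had an adjusted p of 0.0712. Thbs4, a thrombospondin of tendon and muscle matrix on chromosome 13, had 258, 113, 147 and 216 CPM in DUX4 and 17.7, 28, 21.3 and 18.7 CPM in WT libraries of 16 weeks. The 2-week libraries had 91.1, 63.4, 80, 76.4 and 96.7 CPM in DUX4 and 40.5, 20.6, 23.3, 50.5 and 41.8 CPM in WT libraries. The groups stood apart at both times, further at 16 weeks. The change for Thbs4 was 1.85 ± 0.36 (adjusted p = 0.023), and the call was lost without IDUX.16Weeks replicate 1 and without replicate 4 (adjusted p up to 0.0534).

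Of 21 tested genes of matrix crosslinking and remodelling, Mmp3 and Timp2 changed to a more positive effect (median 1.09, 17 above 0). Mmp3, the protease stromelysin, averaged 3.61 ± 1.58 CPM in DUX4 and 0.182 ± 0.137 CPM in WT at 16 weeks, and 1.57 and 1.16 CPM in DUX4 and WT at 2 weeks, with a change of 3.59 ± 0.71 (adjusted p = 0.0263). Its WT level at 16 weeks was at the floor, and the call was lost in 5 of the 18 refits. Timp2, an inhibitor of such proteases, averaged 108 ± 17 CPM in DUX4 and 56.3 ± 13.8 CPM in WT at 16 weeks, and 75.3 and 83.6 CPM in DUX4 and WT at 2 weeks. Its change of 1.08 ± 0.23 (adjusted p = 0.038) did not hold in 10 of the 18. Adamts20, another secreted metalloprotease, averaged 14 ± 3.42 CPM in DUX4 and 4.38 ± 1.47 CPM in WT at 16 weeks, and 11.4 and 16.5 CPM in DUX4 and WT at 2 weeks (change 2.17 ± 0.35, adjusted p = 0.0126). Olfml3, a secreted glycoprotein, averaged 9.98 ± 2.37 CPM in DUX4 and 2.91 ± 0.692 CPM in WT at 16 weeks, and 7.6 and 7.07 CPM in DUX4 and WT at 2 weeks (change 1.67 ± 0.30, adjusted p = 0.0193). In both, as in Oasl2, Ccl8, B2m, H2-T23, Cxcl9 and, further below, Tenm4, the DUX4 means of the 2 times lay closer together than the WT means. In Ifit1, Il1f9 and Thbs4 the DUX4 means lay further apart than the WT means.

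Markers of matrix-making cells are given beside these genes. The summed level of 7 tendon markers had a lowest, median and highest value of 213, 298 and 415 CPM in DUX4 and 47.8, 65.2 and 88.9 CPM in WT libraries of 16 weeks, and of 85.9, 110 and 164 CPM in DUX4 and 44.3, 64.2 and 116 CPM in WT libraries of 2 weeks. The tendon list holds Thbs4 itself, its called member, and the median change of the list was 1.72. Thbs4 averaged 184 CPM in DUX4 and 21.4 CPM in WT at 16 weeks, and 81.5 and 35.3 CPM in DUX4 and WT at 2 weeks. It thus held a large part of the DUX4 tendon sums. The 12 FAP markers summed to 845, 975 and 1230 CPM in DUX4 and 265, 741 and 783 CPM in WT libraries of 16 weeks, and to 394, 734 and 834 CPM in DUX4 and 437, 1000 and 1390 CPM in WT libraries of 2 weeks. None of the 12 FAP markers was called (median 0.79). In WT FAPs and endothelial cells sorted in the same series (3 libraries each), 14 of the 90 genes with a more positive effect (15.6%) were at least 4-fold higher in FAPs, compared with 3.68% of all tested genes, and 10 (11.1%) at least 4-fold higher in endothelial cells, compared with 6.53%. The part of FAP, tendon or endothelial content in the results was not tested.

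Ripor2, Pecam1 and Car3, which share no list, did not differ detectably between DUX4 and WT at 16 weeks and were lower in DUX4 at 2 weeks. Ripor2, an inhibitor of the small GTPase RhoA, averaged 10.5 ± 3.52 CPM in DUX4 and 6.47 ± 0.992 CPM in WT at 16 weeks (SD, n = 4 each). At 2 weeks it had 2.94, 2.44, 2.86, 4.49 and 2.07 CPM in DUX4 and 9.48, 8.24, 14.6, 7.84 and 4.71 CPM in WT libraries, with no overlap. The change for Ripor2 was 2.28 ± 0.41 (adjusted p = 0.0193), from 0.71 at 16 weeks (adjusted p = 0.0866) and -1.57 ± 0.28 at 2 weeks (adjusted p = 0.000991). Pecam1, an adhesion protein of endothelial cells, averaged 148 ± 20 CPM in DUX4 and 137 ± 7.16 CPM in WT at 16 weeks, and 69.3 ± 27.8 and 119 ± 54.4 CPM in DUX4 and WT at 2 weeks. It was the 1 called of 16 endothelial markers (0.87 ± 0.20, adjusted p = 0.0487, lost in 16 of the 18 refits), and the median of that list was 0.25. Car3, a carbonic anhydrase abundant in slow muscle and fat, averaged 2400 ± 544 CPM in DUX4 and 2690 ± 1200 CPM in WT at 16 weeks, and 765 ± 186 and 3080 ± 639 CPM in DUX4 and WT at 2 weeks (change 1.85 ± 0.38, adjusted p = 0.0341, lost in 6).

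13 genes were called at both times with opposite signs, 10 higher in DUX4 at 16 weeks and lower at 2 weeks and 3 the other way. G0s2, an inhibitor of fat breakdown, averaged 29.3 ± 9.32 CPM in DUX4 and 10.5 ± 0.722 CPM in WT at 16 weeks (1.47, adjusted p = 0.000373), and 13.2 ± 4.61 and 22.1 ± 11.8 CPM in DUX4 and WT at 2 weeks (-0.68, adjusted p = 0.0342). Its change was 2.14 ± 0.32 (adjusted p = 0.0105). Dpysl2, a cytoskeletal protein, averaged 24.8 ± 3.21 CPM in DUX4 and 13.7 ± 3.38 CPM in WT at 16 weeks, and 15 ± 2.57 and 21.1 ± 1.88 CPM in DUX4 and WT at 2 weeks, with a change of 1.36 ± 0.23 (adjusted p = 0.0145). Dsg1b, a desmoglein of epithelial junctions, had a fitted change of 6.18 ± 1.14 (adjusted p = 0.0204), which became uncalled without WT.2Weeks replicate 4 (adjusted p = 0.0676). It had 1.59 to 11.5 CPM in DUX4 and 0.113 to 0.847 CPM in WT at 16 weeks. At 2 weeks it had 0 to 0.155 CPM in DUX4 and 0.108 to 1.56 CPM in WT. Most levels outside the 16-week DUX4 libraries lay at or near the floor, so its fitted change is no measure of fold. Of the other crossing genes, Ppp1r16b (a phosphatase regulator), Fads6 (a desaturase) and the mitochondrial transfer RNA mt-Tq moved the same way, by 1.53, 1.78 and 2.07, and Zc3h4, a zinc finger protein, moved by -0.72. Ergic2, a protein of transport between endoplasmic reticulum and Golgi, was lower in DUX4 at 16 weeks (49.3 ± 1.75 CPM against 59.3 ± 6.3 CPM in WT) and higher at 2 weeks (74.6 ± 5.16 CPM against 55.2 ± 1.76 CPM in WT), a change of -0.70 ± 0.12 (adjusted p = 0.0145). Cast, the calpain inhibitor calpastatin, crossed in the same direction with 80 ± 8.53 CPM in DUX4 and 102 ± 7.85 CPM in WT at 16 weeks, and 104 ± 6.37 and 80.9 ± 5.28 CPM in DUX4 and WT at 2 weeks (-0.72 ± 0.13, adjusted p = 0.0195).

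The remaining large positive changes had no list in common. Cep112it, annotated as a transcript within an intron of Cep112, averaged 57.4 ± 26.5 CPM in DUX4 and 8.61 CPM in WT at 16 weeks, and 10.6 and 10.2 CPM in DUX4 and WT at 2 weeks, with a change of 2.68 ± 0.40 (adjusted p = 0.0105). Without counting by strand it could not be told from its host gene, and the strand setting is not given in the sources used here. Pdlim2, an adaptor with PDZ and LIM domains, averaged 5.11 ± 1.81 CPM in DUX4 and 1.49 CPM in WT at 16 weeks, and 1.29 and 2.01 CPM in DUX4 and WT at 2 weeks (2.47 ± 0.41, adjusted p = 0.0126). Tenm4, a teneurin receptor, averaged 7.52 ± 1.54 CPM in DUX4 and 1.41 ± 0.504 CPM in WT at 16 weeks, and 5.23 and 5.21 CPM in DUX4 and WT at 2 weeks (2.35 ± 0.40, adjusted p = 0.0145). Tbx4, a hindlimb transcription factor from the list of position genes, averaged 6.23 ± 0.977 CPM in DUX4 and 1.93 ± 0.402 CPM in WT at 16 weeks, and 1.81 and 2.27 CPM in DUX4 and WT at 2 weeks (1.99 ± 0.33, adjusted p = 0.0126). Trp73, a transcription factor of the p53 family, had 1.65, 0.915, 2.73 and 2.97 CPM in DUX4 and 0, 0.0777, 0 and 0 CPM in WT libraries of 16 weeks, and no more than 0.596 CPM in DUX4 and 0.651 CPM in WT libraries of 2 weeks. Cdcp1, a membrane protein, had 2.5, 1.98, 4 and 3.83 CPM in DUX4 and at most 0.168 CPM in WT libraries of 16 weeks, and at most 0.622 CPM in DUX4 and 0.473 CPM in WT libraries of 2 weeks. Both genes were thus highest in the DUX4 libraries of 16 weeks, with WT at the floor. Other named genes were Cyp4f39 (a cytochrome P450, 3.90 ± 0.82, adjusted p = 0.036), Mycl (a Myc family factor, 3.46 ± 0.78, adjusted p = 0.0468), Car5b (a mitochondrial carbonic anhydrase, 2.48 ± 0.47, adjusted p = 0.0225) and Lhfpl2 (a tetraspan protein, 2.20, adjusted p = 0.038). Their calls were lost in 10, 13, 1 and 12 of the 18 refits, in that order. Cyp4f39 was also called at both times with opposite signs, 2.06 at 16 weeks and -1.84 at 2 weeks. It averaged 3.17 CPM in DUX4 and 0.801 CPM in WT at 16 weeks. At 2 weeks it averaged 0.101 and 0.442 CPM in DUX4 and WT replicates 1 to 3, and 8.84 and 30.1 CPM in replicates 4 to 5.

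**Figure D4:**
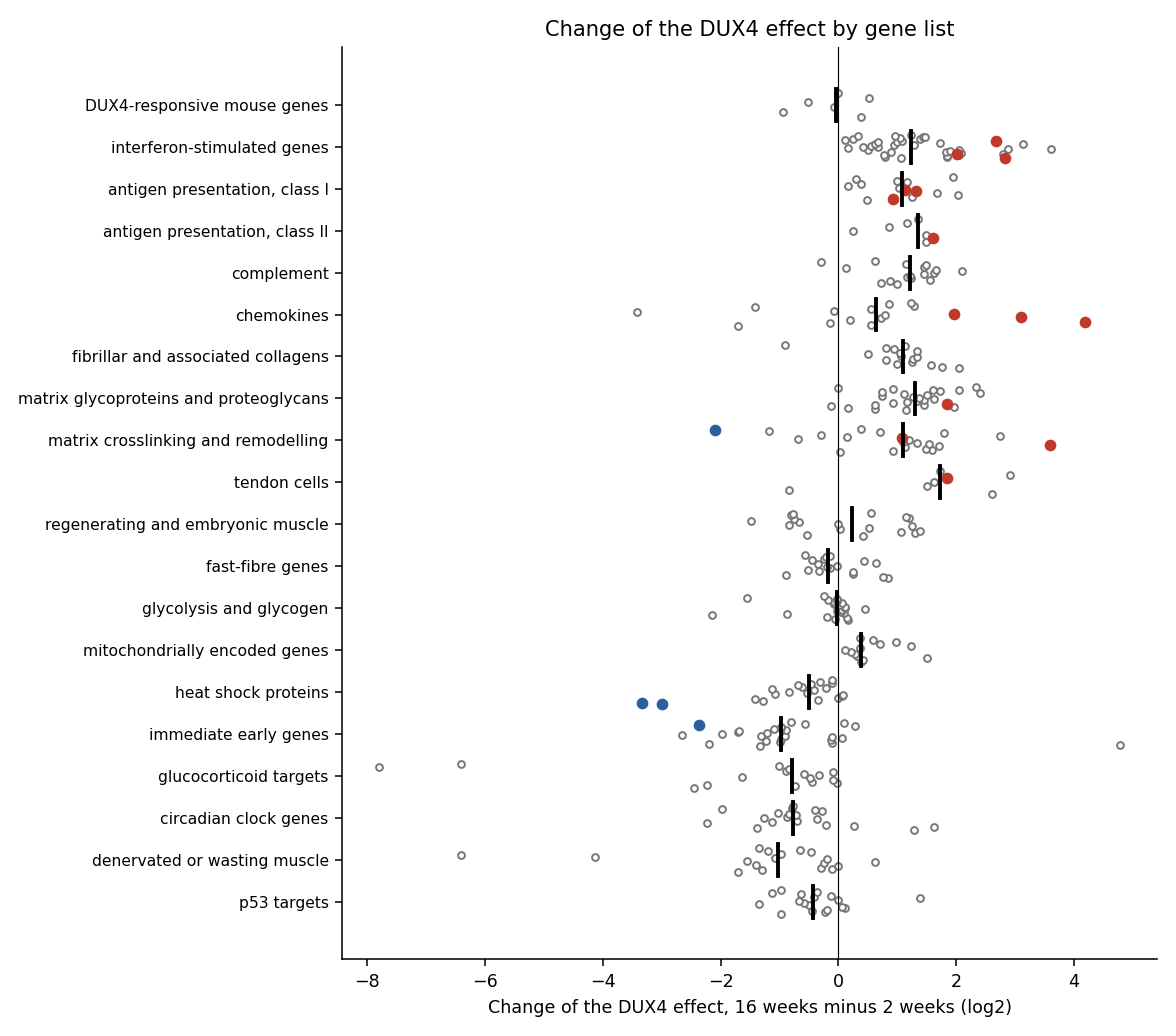
Change of the DUX4 effect (log2, 16-week minus 2-week DUX4 minus WT difference) for each tested gene of 20 lists. Points are genes, black bars are list medians, and filled red or blue points are genes called as more positive or more negative. The interferon-stimulated, class I and class II lists have medians above 1, and the DUX4-responsive and glycolysis lists have medians near 0.

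Among genes with a more negative effect, Peg10, Nek6 and Hspa1b were close to WT in DUX4 muscle at 16 weeks and higher than WT at 2 weeks. Peg10, an imprinted gene derived from a retrotransposon (chromosome 6, 4747306 to 4760517), had 4.71, 2.59, 3.56 and 4.56 CPM in DUX4 and 5.86, 3.57, 3.62 and 5.21 CPM in WT libraries of 16 weeks. The 2-week libraries had 33.3, 28.2, 51, 7.5 and 5.04 CPM in DUX4 and 3.84, 4.34, 6.34, 1.35 and 1.23 CPM in WT. The groups overlapped at 16 weeks, and within each 2-week set the DUX4 libraries lay above WT. The change for Peg10 was -2.93 ± 0.36 (adjusted p = 0.00592), from -0.20 ± 0.26 at 16 weeks (adjusted p = 0.6) and 2.72 ± 0.25 at 2 weeks (adjusted p = 1.64e-06). Nek6, a mitotic kinase, had 19.1, 16.5, 19.2 and 15.7 CPM in DUX4 and 19.7, 13.7, 8.83 and 11.8 CPM in WT libraries of 16 weeks, and 35.5, 47.5, 32.1, 21 and 36.3 CPM in DUX4 and 5.64, 4.66, 6.52, 8.52 and 7.45 CPM in WT libraries of 2 weeks. Both genotypes converged in Nek6, with lower DUX4 and higher WT levels at 16 weeks, and its change was -2.01 ± 0.34 (adjusted p = 0.0151).

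Heat shock chaperones refold damaged proteins, and of 20 tested 2 changed in effect, Hspa1a and Hspa1b, whose promoters are printed above. In DUX4 muscle 1 of the 20 was higher at 16 weeks and 8 at 2 weeks, with a median change of -0.50. The shares over all tested genes were 16.5% and 12.5%. Hspa1b had 23.6, 9.61, 12.2 and 15.1 CPM in DUX4 and 14.2, 7.69, 8.89 and 15.8 CPM in WT libraries of 16 weeks. Its 2-week levels were 49.8, 41.5, 159, 16.9 and 7.39 CPM in DUX4 and 4.9, 2.82, 5.33, 1.42 and 2.17 CPM in WT libraries. The groups overlapped at 16 weeks, when every WT library lay above all 2-week WT libraries, and did not overlap at 2 weeks. The change for Hspa1b was -3.34 ± 0.65 (adjusted p = 0.0249, up to 0.0555 without WT.2Weeks replicate 3 or IDUX.16Weeks replicate 4), and that for Hspa1a -3.00 ± 0.63 (adjusted p = 0.036, lost in 10 of the 18 refits). The pair encode nearly the same protein, and the authors' counts may split reads between them.

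Ostn, the muscle-secreted peptide musclin, had 76.9 ± 14.8 CPM in DUX4 and 4.56, 120, 33.3 and 28.8 CPM in WT libraries of 16 weeks, and averaged 49.3 ± 45.2 and 1.56 ± 1.02 CPM in DUX4 and WT at 2 weeks. Its change was -4.18 ± 0.92 (adjusted p = 0.0452), lost in 15 of the 18 refits. Otud1, a deubiquitinase, averaged 70 and 38.1 CPM in DUX4 and WT at 16 weeks, and 121 and 12.3 CPM in DUX4 and WT at 2 weeks (-2.43, adjusted p = 0.0438, lost in 15). Csrnp1, a nuclear protein and the 1 called of 26 tested immediate early genes, changed by -2.36 ± 0.49 (adjusted p = 0.036, lost in 10). The median of the immediate early list was -0.98, and Atf3, a stress-induced factor, did not pass (-2.65 ± 0.74, adjusted p = 0.0944). Irs2, an adaptor of the insulin receptor, averaged 23.2 and 52.4 CPM in DUX4 and WT at 16 weeks, and 28.6 and 16.4 CPM in DUX4 and WT at 2 weeks (-1.98 ± 0.42, adjusted p = 0.0391, lost in 10). Med25, a Mediator subunit, changed by -2.75 (adjusted p = 0.0438, lost in 14). Epb41l4b, a cytoskeletal linker, differed by -0.03 at 16 weeks and 1.54 at 2 weeks, and its change of -1.57 ± 0.28 (adjusted p = 0.0193) held in every refit.

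Mss51, a mitochondria-associated protein of fast muscle, differed between DUX4 and WT at 16 weeks and not detectably at 2 weeks. It had 68.2, 79.6, 77.3 and 99.4 CPM in DUX4 and 217, 409, 318 and 202 CPM in WT libraries of 16 weeks. At 2 weeks it had 20.3, 15.5, 15.6, 8.2 and 9.61 CPM in DUX4 and 18.4, 6.4, 7.81, 10.2 and 7.54 CPM in WT libraries. Both genotypes were higher at 16 weeks, WT by more, and the groups overlapped at 2 weeks. The change for Mss51 was -2.22 ± 0.40 (adjusted p = 0.0193), from -1.82 ± 0.29 at 16 weeks (adjusted p = 0.000311) and 0.40 ± 0.27 at 2 weeks (adjusted p = 0.332). Fam189a2 also separated at 16 weeks alone, with 17.7 ± 2.02 CPM in DUX4 and 36.9 ± 1.49 CPM in WT at 16 weeks, and 29.5 ± 3.49 and 30.8 ± 1.51 CPM in DUX4 and WT at 2 weeks (-1.01 ± 0.13, adjusted p = 0.00643). Pdlim3, a protein of the muscle Z-disc, was higher in DUX4 at both times, by 0.59 at 16 weeks and 1.57 at 2 weeks (-0.98 ± 0.16, adjusted p = 0.0126). It averaged 655 ± 22.5 CPM in DUX4 and 436 ± 82.5 CPM in WT at 16 weeks, and 955 ± 197 and 318 ± 45.7 CPM in DUX4 and WT at 2 weeks. Aarsd1, an editing protein for mischarged transfer RNA, likewise differed by 0.46 at 16 weeks and 1.42 at 2 weeks (-0.96 ± 0.16, adjusted p = 0.0126).

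Lists of hormone and stress response had negative medians and no call beyond those named. The 16 glucocorticoid targets all lay below 0 with a median of -0.78, the 19 clock genes had a median of -0.77 and the 18 genes of denervated muscle -1.03, with none called. These values moved with WT.16Weeks replicate 1, the library high in Fkbp5. Without it the median of the glucocorticoid targets list was -0.18 and that of the denervated muscle list -0.11, and for the clock genes the range over all alternatives was -0.91 to -0.56.

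DUX4-responsive genes of mouse muscle, known from earlier mouse models, were higher in DUX4 at both times, and none of the 6 was called for a change. Their median difference was 2.13 at 16 weeks and 2.63 at 2 weeks, with a median change of -0.04. Wfdc3, a protease inhibitor family gene, averaged 45.9 ± 8.87 CPM in DUX4 and 0.108 ± 0.138 CPM in WT at 16 weeks, and 65.2 ± 38.4 and 0.207 ± 0.209 CPM in DUX4 and WT at 2 weeks. Its WT level was at or near the floor, and its fitted change of 0.39 ± 1.26 (adjusted p = 0.895) has a wide error. Sord, sorbitol dehydrogenase, had 342, 338, 355 and 332 CPM in DUX4 libraries of 16 weeks and 406, 571, 421, 352 and 637 CPM in those of 2 weeks, against means of 95 ± 14.8 CPM in WT at 16 weeks and 69.3 ± 11.9 CPM in WT at 2 weeks. Its change of -0.94 ± 0.24 fell short of the threshold (adjusted p = 0.0707). Ilvbl changed by -0.08 (adjusted p = 0.889), Slc15a2 by -0.52 ± 0.70 (adjusted p = 0.707) and Agtrap by 0.52 ± 0.39 (adjusted p = 0.479). Serpinb6c, a serpin, averaged 18.2 ± 2.48 and 0.251 CPM in DUX4 and WT at 16 weeks, and 3.07 ± 2.95 and 0.0347 CPM in DUX4 and WT at 2 weeks, with WT at or near the floor at both times, so that its fitted change is no measure of fold.

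Muscle fibre lists that differed between DUX4 and WT at both times gave no call for a change. Over all tested genes, 13.7% were lower in DUX4 at 16 weeks and 8.26% at 2 weeks, and 16.5% and 12.5% were higher. Of 18 fast-fibre genes 11 were lower in DUX4 at 16 weeks and 14 at 2 weeks, with a median change of -0.17. Of 22 glycolysis genes 13 were lower at 16 weeks and 9 at 2 weeks, with a median change of -0.03. Of 18 genes of regenerating muscle 10 were higher in DUX4 at each time, with a median change of 0.22. Pygm, glycogen phosphorylase, differed by -1.13 at 16 weeks and -1.05 at 2 weeks, and Myh3, the embryonic myosin, by 2.51 and 2.09. A p above the threshold does not show that these effects were equal at both times. In lists with no call, an unadjusted p below 0.05 was found for 9 of 16 collagens, 11 of 17 complement genes, 4 of 13 sensors, 6 of 19 macrophage and 4 of 12 FAP markers. The same held for 4 of 16 glucocorticoid targets, 6 of 19 clock genes, 6 of 18 genes of denervated muscle and 2 genes in each fibre list of this paragraph, compared with 19.6% of all tested genes.

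The number of calls depended on single libraries and on the 2-week set. Leaving out 1 library at a time gave between 59 calls (without IDUX.16Weeks replicate 1 or 4) and 240 (without WT.16Weeks replicate 1). All 137 genes kept their direction in each of the 18 refits, 44 kept their call in all and 93 lost it in at least 1. Among the 44 were Ifit1, Ifi27l2a, Ifitm3, B2m, H2-T23, Il1f9, Ccl8, Peg10, Nek6 and Mss51. When the 2-week effect was taken from replicates 1 to 3, the fit called 40 genes with those libraries alone, 28 of them among the 137, and with replicates 4 to 5 alone it called 2 genes, none among the 137. In a single fit of all 18 libraries with 6 means, the change against each 2-week set had an unadjusted p below 0.05 in 136 of the 137 genes for either set, compared with 15.8% and 12.3% of all tested genes. This is no independent check, since the 16-week libraries are shared and the 137 were called on the same 2-week libraries.

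**Figure D5:**
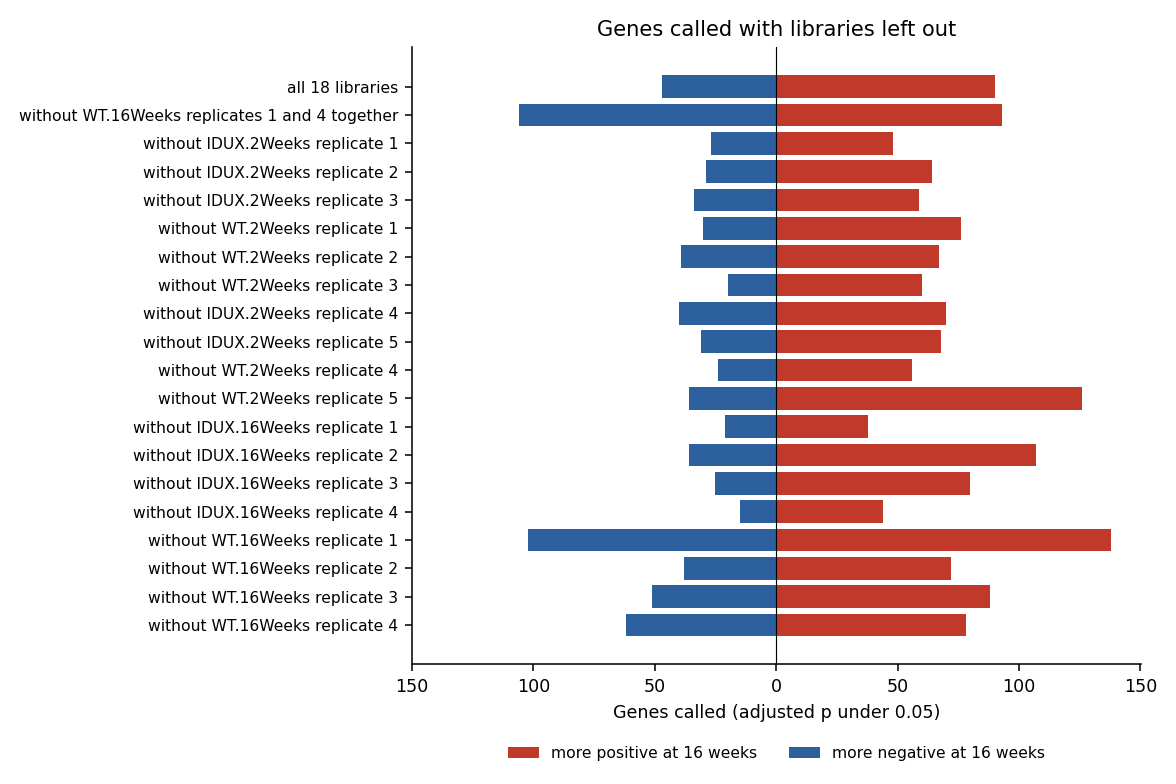
Number of genes whose DUX4 effect differed between 16 and 2 weeks, more positive (red) and more negative (blue), with all 18 libraries and without each library in turn. The total runs from 59 to 240, with 137 when all libraries are used.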

How the data were processed

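RNA was read as 50-base paired ends from mRNA libraries, per the labels' protocols. The authors deposited expected counts per gene for each library, made with Salmon 0.6.0 and mm10, per the submitters' processing notes. The sources used here do not give the annotation release or how transcripts were summed to genes. From 43035 genes per table, 42459 had a symbol in GENCODE vM21. The expected counts were rounded to whole numbers and fitted in edgeR 4.0.16 (R 4.3.3) with 4 group means and a term for the 2-week set, TMM scaling, its filter with a minimum count of 10 and robust quasi-likelihood. The change is the 16-week DUX4 minus WT difference minus the 2-week one, with Benjamini-Hochberg adjustment over 15396 genes. The genotypes differed in TMM factor (1.08 to 1.23 in DUX4 and 0.856 to 0.951 in WT at 16 weeks). Replicate numbers follow listing order only. No 2 libraries agreed within sampling noise (lowest chi-square per gene 15.8). The method was tested on simulated counts.

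The genes named were, by rule, the 12 largest called changes in each direction with at least 5 CPM in 1 group, called members of the lists, the 6 DUX4-responsive genes and those with opposite signs. Ifitm3, Sirpa, Mgl2, Adamts20, Olfml3, Car3, Trp73, Cdcp1, Fam189a2, Pdlim3, Aarsd1 and the uncalled examples were chosen after their values were seen. A called gene that the rule names is not reported here. The comparison and the gene lists were chosen with earlier results of these data known.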

Additional observations from a re-analysis of the deposited data

Results flagged for a closer look

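The contrast itself is a difference between times: 137 genes were called, 90 more positive and 47 more negative at 16 weeks. Between the 2-week sets, the DUX4 minus WT difference of Zfp385a differed by -2.90 (adjusted p = 0.00774, edgeR), the 1 call of that test. Zfp385a had 91.9 CPM in DUX4 and 96.2 CPM in WT in replicates 1 to 3, and 63.6 CPM in DUX4 and 8.88 CPM in WT in replicates 4 to 5.

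Single libraries stood far from the rest of their group in 14 of 204 groups checked (6.86%) over 51 genes. The cut-off would flag about 1 in 20 groups by chance if levels followed a normal curve. CPM was not put on a log scale and the 2-week groups pool 2 sets, so that rate need not hold here. In IDUX.16Weeks, Cep112it reached 96.8 CPM in replicate 3 (others 39.7 to 47), B2m 131 CPM in replicate 4 (95.8 to 100) and H2-D1 132 CPM in replicate 4 (97.7 to 102). In WT.16Weeks, Agtrap reached 12.4 CPM in replicate 4 (6.97 to 7.7). In IDUX.2Weeks, Cyp4f39 reached 14.2 CPM in replicate 4 (0 to 3.52), Ostn 130 CPM in replicate 5 (23.9 to 33.9) and Serpinb6c 8.09 CPM in replicate 5 (0.762 to 2.86). In the same group Hspa1b reached 159 CPM (7.39 to 49.8) and Hspa1a 119 CPM (8.5 to 34.2), both in replicate 3. In WT.2Weeks, Mycl reached 3.59 CPM (0.471 to 0.735) and Sord 89.7 CPM (59.9 to 67.6) in replicate 1, where Cxcl9 was low at 1.55 CPM (2.66 to 2.98). In replicate 4 of WT.2Weeks Cep112it reached 15.7 CPM (8.17 to 9.87) and Dsg1b 1.56 CPM (0.108 to 0.471).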

How the results depend on the processing

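No called change of a named gene reversed its direction under the alternatives run. The count of 137 (90 more positive, 47 more negative) was 131 under RLE scaling, 145 under a stricter filter, 83 with no filter (22 more negative), 46 with no set term (29 and 17), 22 with a Y-chromosome covariate (15 and 7), 6 for a fold over 1.5 (4 and 2), 711 with DESeq2 (419 and 292), 709 with limma voom (410 and 299) and 199 without WT.16Weeks replicates 1 and 4 (106 more negative). DESeq2 called all 137 and voom 129 of them. With the 2-week replicates 1 to 3 alone it was 40 (29 and 11), with replicates 4 to 5 alone 2 (0 and 2). Against each set's own mean in 1 fit, chosen after seeing the data, edgeR called 63 (42 and 21) with replicates 1 to 3 and 0 (0 and 0) with replicates 4 to 5, with 2437 and 1898 genes at an unadjusted p below 0.05. The 2-week count of 3192 was 2002 or 360 with either set alone, 2054 or 572 in the fit with 6 means, 5001 with voom and 732 for a fold over 1.5, where the 16-week count of 4653 was 1318. Leaving out 1 library gave totals of 59 to 240, 38 to 138 more positive and 15 to 102 more negative. The causes were not tested. No paired analysis was possible because the replicate numbers follow listing order only.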

Other observations

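No fat cell or mitochondrial gene of the lists was called for a change (edgeR). An unadjusted p below 0.05 was found in 6 of 8 adipocyte, 4 of 13 mitochondrially encoded and 0 of 26 nuclear genes. The share over all tested genes was 19.6%. Of 8 tested adipocyte genes all lay above 0, with a median change of 2.26. At 16 weeks 6 of the 8 were higher in DUX4, compared with 16.5% of all tested genes. At 2 weeks none was, compared with 12.5% of all. Adipoq, the adipocyte hormone adiponectin, changed by 2.48 ± 0.85 (adjusted p = 0.149). It averaged 30 CPM in DUX4 and 4.55 CPM in WT at 16 weeks. At 2 weeks, over both genotypes, it lay at 12.8 to 72.2 CPM in replicates 1 to 3 and at 0.207 to 2.71 CPM in replicates 4 to 5. Adipoq in DUX4 muscle was thus not higher at 16 weeks than in the 2-week replicates 1 to 3, which averaged 42.3 CPM. The summed adipocyte markers had a lowest, median and highest value of 836, 916 and 1230 CPM in DUX4 and 543, 700 and 911 CPM in WT libraries of 16 weeks, and of 303, 668 and 1350 CPM in DUX4 and 464, 569 and 2190 CPM in WT libraries of 2 weeks. All 13 genes encoded in mitochondrial DNA lay above 0 (median 0.39), with 1 lower in DUX4 at 16 weeks and 10 at 2 weeks. The shares over all tested genes were 13.7% and 8.26%. Of 26 nuclear genes of oxidative phosphorylation 23 lay above 0 (median 0.23).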
